A study of Mus musculus with 6 samples.

Results

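The tripartite motif (Trim) family was read out of RNA sequencing of macrophages from mouse tumours as the rows of the deposited gene table whose symbol begins with Trim and a digit. The rule found 50 genes among 15487 in the table, and RefSeq names 69 such genes in mouse, of which the other 19 are not analysed here. The macrophages were isolated by flow cytometry from implanted tumours of CT26, a mouse colon carcinoma line, 15 days after challenge. Sg-C3 (3 libraries) is read here as tumour cells with a guide RNA against complement C3, and Sg-Con (3 libraries) as tumour cells with a control guide. The hosts of both groups are labelled BALB/C and the macrophages wild type, so a change to C3 lies in the tumour cells as far as the labels go. Titles of 2 Sg-C3 libraries call them C3KO, and C3 of the tumour cells themselves cannot be read from macrophage libraries. The labels leave out the age and sex of the mice, whether the CT26 cells were 1 clone and whether mice were pooled. FPKM, fragments per kilobase of gene scaled to the depth of the library, is the authors' unit and allows levels of different genes to be set side by side.

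Trim proteins combine a RING finger, B-box zinc fingers and a coiled coil with a variable C-terminal part, and most are E3 ubiquitin ligases, which choose the proteins that receive ubiquitin. Many carry a PRY-SPRY domain and act in antiviral defence, some of them induced by interferon, while others repress chromatin, bind microtubules or act in muscle. In macrophages, family members tune the signalling of RIG-I-like receptors, of the DNA sensor cGAS and of Toll-like receptors.

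Some promoters of the chromosome 7 cluster are shown first, because the highest log2 fold change among the tested members lies there. Each line gives 90 bases before to 30 after the annotated start site, 5′ to 3′ on the gene's strand, from RefSeq windows on GRCm38.p6. Capitals mark matches on either strand to GAAA, any 2 bases and GAAA (on the other strand TTTC, any 2 bases and TTTC), the core of the interferon-stimulated response element bound by IRF factors.
Trim30d (chr7:104507820-104507939, minus strand): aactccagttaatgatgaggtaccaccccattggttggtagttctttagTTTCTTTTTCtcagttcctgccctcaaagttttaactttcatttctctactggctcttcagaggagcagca
Trim30a, the window farther upstream (chr7:104465164-104465283, minus strand): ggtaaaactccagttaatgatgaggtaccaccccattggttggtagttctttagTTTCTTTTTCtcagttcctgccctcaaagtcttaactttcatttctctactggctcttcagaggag
Trim30a, the other window (chr7:104446096-104446215, minus strand): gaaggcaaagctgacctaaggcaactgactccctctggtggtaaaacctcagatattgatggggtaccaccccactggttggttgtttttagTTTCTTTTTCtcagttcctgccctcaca
Trim30b (chr7:104358617-104358736, minus strand): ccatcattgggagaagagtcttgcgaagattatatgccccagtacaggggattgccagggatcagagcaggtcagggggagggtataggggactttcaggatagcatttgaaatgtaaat
Trim12c (chr7:104353320-104353439, minus strand): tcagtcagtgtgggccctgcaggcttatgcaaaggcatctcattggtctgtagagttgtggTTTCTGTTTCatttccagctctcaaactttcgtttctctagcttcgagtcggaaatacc
Trim21 (chr7:102565453-102565572, minus strand): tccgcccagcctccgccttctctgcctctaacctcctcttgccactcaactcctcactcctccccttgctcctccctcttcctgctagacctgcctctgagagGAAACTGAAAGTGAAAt
Trim34a (chr7:104244367-104244486, plus strand): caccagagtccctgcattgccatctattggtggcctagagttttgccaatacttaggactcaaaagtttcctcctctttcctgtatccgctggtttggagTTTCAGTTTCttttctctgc
Trim47 (chr11:116110206-116110325, minus strand): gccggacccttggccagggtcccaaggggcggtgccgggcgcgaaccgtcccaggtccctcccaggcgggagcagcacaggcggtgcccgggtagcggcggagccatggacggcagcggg
Trim30d, Trim30a and Trim30b are set beside 3 further genes of that cluster and its neighbourhood, all 3 with a match. Trim47, also shown, had the lowest log2 fold change among the tested members. The windows of Trim34b and Trim6, in the same cluster and not printed, held no match, while that of Trim5, also not printed, held a match. The full windows of 300 bases of Trim30d and of the farther upstream Trim30a start shared an identical run of 118 bases, which begins upstream of the bases printed, holds the match and ends before the start site, while the longest run shared by the Trim30d and Trim30b windows was 8 bases. The Trim30d match began 41 bases before the start site, the upstream Trim30a match 36 bases before it and the Trim12c match 29 bases before it. In Trim21 a pair of matches overlapped each other just after the start site. Over the full windows of 300 bases, 37 members had at least 1 window, and 8 of these held the motif (21.6%), against 3.99% of 27025 mouse genes. By outcome, it was present in 2 of 4 members called higher, 0 of 6 called lower, 4 of 15 not called and 2 of 12 too low to test. The 8 were Trim2, Trim5, Trim12c, Trim21, Trim26, Trim30a, Trim30d and Trim34a. They are not independent of each other. Trim30a and Trim30d, the 2 called higher with a match, share the identical run described above. Trim5 and Trim12c were also identical in the bases next to their matches. The shares thus count copied sequence more than once. A match is a description of these letters only.

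The 6 libraries were alike in depth, with an estimated 17.6 to 19.3 megareads mapped. Their FPKM sums, which are already scaled to depth, lay between 474579 and 487358. Library pairs correlated at Pearson r of 0.986 to 0.990 within groups and 0.945 to 0.974 between them over log2(FPKM + 1) of all genes. All 12 macrophage markers on the list used were well above the filter, with a summed level of 10656 to 13313 FPKM in Sg-C3 and 16730 to 18395 in Sg-Con. Lyz2 alone held 2710 to 3730 FPKM of this in Sg-C3 and 6928 to 8718 FPKM in Sg-Con. Markers of other cells also differed. NK and T cell markers summed to 50.9 to 60.6 FPKM in Sg-C3 and 3.66 to 9.0 FPKM in Sg-Con, and neutrophil markers to 370 to 1306 FPKM in Sg-C3 and 114 to 204 FPKM in Sg-Con. In the neutrophil sum S100a9 alone had 189 to 734 FPKM in Sg-C3 and 23.4 to 76.7 FPKM in Sg-Con. Dendritic cell markers summed to 246 to 314 FPKM in Sg-C3 and 109 to 143 FPKM in Sg-Con. Bst2 alone held 169 to 181 FPKM of this in Sg-C3 and 77.1 to 120 FPKM in Sg-Con. Only 7 of 14 NK and T cell, 6 of 12 dendritic cell and 5 of 10 neutrophil markers passed the filter. Of these, Cd3g, Klrb1c, Nkg7, Gzma and Gzmb stayed under 1 FPKM in every Sg-Con library and passed only through Sg-C3. The count of NK and T cell genes called higher was thus partly set by the filter. Fibroblast markers summed to 143 to 208 FPKM in Sg-C3 and 67.5 to 93.3 FPKM in Sg-Con. Dcn alone held 85.3 to 134.7 FPKM of this in Sg-C3 and 17.9 to 28.75 FPKM in Sg-Con. Carcinoma markers summed to 3.63 to 4.2 FPKM in Sg-C3 and 18.9 to 31.6 FPKM in Sg-Con. Of the tested markers, 7 of 7 NK and T cell, 4 of 5 neutrophil and 5 of 6 dendritic cell genes were called higher, while 4 of 12 macrophage genes (Cd68, Itgam, Lyz2 and Mertk) and 2 of 3 carcinoma genes were called lower. Of all tested genes, 12.7% were called higher and 31.7% lower, so the macrophage count was near the background. Fibroblast genes were split, with 4 of 8 higher and 2 lower, and 0 of 1 B cell and 0 of 5 erythroid genes were called. Their part in the Trim values was not tested, and in sorted bulk samples fewer cells of a type and less RNA per cell cannot be told apart.

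Of the 50 members, 34 reached 1 FPKM in at least 3 libraries and were tested. On log2(FPKM + 1), limma called 5 higher and 10 lower in Sg-C3 at an adjusted p below 0.05, taken over all 11198 genes tested. That is 14.7% and 29.4% of the tested members, where 12.7% and 31.7% of all tested genes were called higher and lower, so the family's counts were close to those of the transcriptome. In either direction 15 of the 34 were called, beside 44.4% of all genes. The groups did not overlap for 19 of the 34 (8 wholly above, 11 wholly below), beside 57.6% of all genes. The median log2 fold change of the tested members was -0.09, against -0.16 for all tested genes, and the family's median turned to 0.05 under median-ratio scaling, where that of all genes was 0.01. Relative values below are a log2 fold change minus the -0.16 of all genes. Median-ratio scaling gave 9 members higher and 4 lower (19.7% and 17.5% of all genes), and quantile normalization 9 and 6 (16.6% and 21.9%). A filter at a mean of 5 FPKM left 17 members, with 3 higher and 5 lower (14.2% and 33.9% of all genes), and no filter gave 6 and 8 of the 50 (10.0% and 22.1%).

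The family's counts varied with the library left out. Leaving out Sg-C3 replicate 1 gave 3 higher and 5 lower, with 7.98% and 21.9% of all genes. The counts were 2 and 5 if Sg-C3 replicate 2 was left out, with 7.35% and 17.9% of all genes. Omitting Sg-C3 replicate 3 gave 8 and 9, with 12.9% and 33.0%, close to the shares of all genes with every library. On the Sg-Con side, omitting replicate 1 gave 4 and 6 (10.4% and 21.9% of all genes), omitting replicate 2 gave 4 and 5 (9.07% and 22.9%), and omitting replicate 3 gave 5 and 8 (11.9% and 25.1%). Sample titles come in different styles within each group (TAM or C3KO against CON or SGC3), and with title style as a covariate 5 members were called higher and 8 lower (10.7% and 26.0% of all genes), with Trim16 and Trim65 no longer called (limma adjusted p = 0.0614 for both).

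Counts and medians differed between roles, a difference that was not tested. Of 12 tested members listed for antiviral defence or for sensing nucleic acid and antibody, 3 were called higher and 1 lower. Of all tested genes, 12.7% were called higher and 31.7% lower. The median log2 fold change of the 12 was 0.36, against -0.16 for all tested genes. The Sg-C3 libraries lay wholly above Sg-Con for 6 of them (16.2% of all tested genes did). Of the other 22 tested members, 2 were called higher and 9 lower, or 9.09% and 40.9%. Their median was -0.22, or -0.06 relative to all genes, and 10 lay wholly below (41.4% of all tested genes did). With median-ratio scaling, 7 of the 12 antiviral members were called higher and none lower, against 2 higher and 4 lower among the other 22. Under that scaling 19.7% of all genes were called higher and 17.5% lower. The antiviral members summed to 168 to 234 FPKM in Sg-C3 and 119.5 to 143 FPKM in Sg-Con. The roles were assigned with earlier results of these data known. Each member was put in only 1 role, so members listed elsewhere may also act in antiviral defence or sensing. Markers of NK and T cells, dendritic cells and neutrophils were higher in the same libraries, and their part in the antiviral values was not tested.

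**Figure D1:**
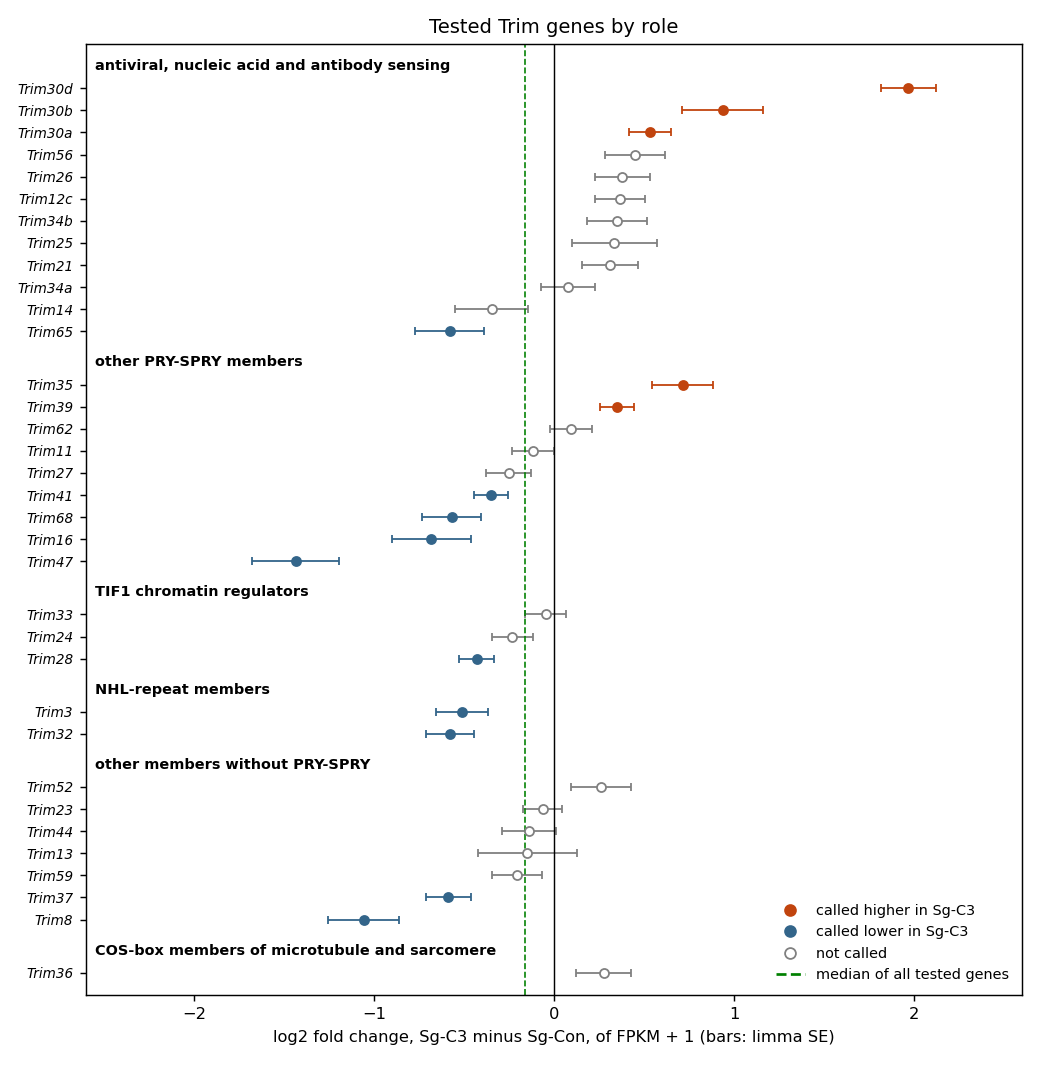
Log2 fold change (horizontal axis, Sg-C3 minus Sg-Con, on FPKM + 1) of the 34 tested Trim genes, grouped by role, with limma's SE as bars, filled symbols for called genes and a dashed line at the median of all tested genes. Trim30d stands at 1.97 and Trim47 at -1.44, and most antiviral members lie right of the dashed line.

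Within the antiviral group 3 Trim30 genes were the members called higher. They lie together on chromosome 7 in the order Trim30b, Trim30a and Trim30d, with Trim30c, not analysed here, between the first pair. Trim30d had 25.1, 29.0 and 27.9 FPKM in the Sg-C3 libraries, against 6.50, 4.84 and 7.63 FPKM in Sg-Con. Every Sg-C3 library was thus more than 3 times the highest Sg-Con library. The mean was 27.3 ± 1.99 FPKM in Sg-C3 and 6.32 ± 1.40 in Sg-Con (SD, n = 3 each), a ratio of 4.32 and a log2 fold change of 1.97 (SE 0.15, limma adjusted p = 8.81e-04). By p it ranked 34 of 11198 genes. It kept its call in all 12 alternatives, with log2 fold changes between 1.81 and 2.14.

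Trim30a, which in mouse macrophages curbs NF-kB signalling by removing TAB2 and TAB3, was the most abundant of the 3 in both groups and changed less. It had 35.3, 38.1 and 35.3 FPKM in Sg-C3 against 29.2, 22.4 and 23.1 FPKM in Sg-Con. The groups did not overlap, and the log2 fold change was 0.53 (SE 0.12, limma adjusted p = 0.0113), called in all 12 alternatives. Trim30b was low, at 3.21, 3.44 and 1.78 FPKM in Sg-C3 against 0.66, 0.82 and 1.46 FPKM in Sg-Con. Sg-C3 replicate 3 lay near the highest Sg-Con library. The log2 fold change was 0.94 (SE 0.23, limma adjusted p = 0.0151), and the call was lost if Sg-C3 replicate 1 (adjusted p = 0.0550) or 2 (0.0574) was left out.

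Copies of this cluster can share reads. Of all stretches of 50 bases in the longest GENCODE vM21 transcript of Trim30d, 8.29% also occurred in another Trim gene, and 6.99% in Trim30a. For Trim30a the share was 6.53% and for Trim30b 0.73%. It was far larger for Trim34b, at 59.0% with Trim34a, for Trim34a, at 41.3% with Trim34b, and for Trim12c, at 24.2% with Trim5, so values of these 4 genes are uncertain. The labels and files do not say how reads that map to several genes were counted.

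Of the other 9 antiviral members, 8 did not pass the test. Trim25, the ligase that activates RIG-I, was the most abundant member, at 106, 61.5 and 54.3 FPKM in Sg-C3 against 56.7, 50.7 and 60.9 FPKM in Sg-Con. Sg-C3 replicate 1 stood apart, and the other Sg-C3 libraries overlapped Sg-Con. The log2 fold change was 0.33 (SE 0.24, limma adjusted p = 0.277), and 0.04 with that library left out. The same library had the highest summed neutrophil markers, 1306 FPKM against 691 and 370 in the other Sg-C3 libraries, and the part of these cells in the Trim25 value was not tested. Trim26, reported to act on IRF3, had 29.5, 21.5 and 20.8 FPKM in Sg-C3 against 20.3, 16.3 and 17.5 FPKM in Sg-Con. Its groups did not overlap, again with the highest value in Sg-C3 replicate 1, and the log2 fold change was 0.38 (SE 0.15, limma adjusted p = 0.0800).

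Trim56, which acts on the cGAS and STING pathway, had 7.82, 5.89 and 4.99 FPKM in Sg-C3 against 4.38, 3.59 and 4.79 FPKM in Sg-Con. Trim12c, a mouse relative of the human restriction factor TRIM5, had 8.64, 7.45 and 5.96 FPKM in Sg-C3 against 5.10, 5.31 and 5.90 FPKM in Sg-Con. In both genes the groups were separate but nearly touched. Their log2 fold changes were 0.45 and 0.36, with limma adjusted p = 0.0628 and 0.0680, and both were called if Sg-C3 replicate 3 was left out (adjusted p = 0.0296 and 0.0190). Trim21, the cytosolic receptor for antibody-coated virus, averaged 4.43 ± 0.849 FPKM in Sg-C3 and 3.37 ± 0.624 FPKM in Sg-Con (SD, n = 3 each) and overlapped (log2 fold change 0.31, limma adjusted p = 0.138). Trim34b averaged 1.57 ± 0.399 FPKM in Sg-C3 and 1.02 ± 0.280 FPKM in Sg-Con (log2 fold change 0.35, adjusted p = 0.123, and 0.0449 without Sg-C3 replicate 3). Trim34a averaged 1.56 ± 0.441 FPKM in Sg-C3 and 1.41 ± 0.0839 FPKM in Sg-Con (log2 fold change 0.08, adjusted p = 0.697), and its sign turned without Sg-C3 replicate 3 (-0.03). After median-ratio scaling, Trim12c, Trim21, Trim26 and Trim56 were called as well, with log2 fold changes of 0.53, 0.46, 0.56 and 0.61.

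A pair of antiviral members had lower means in Sg-C3. Trim14, a mitochondrial partner of MAVS that also protects cGAS, had 7.36, 5.58 and 7.92 FPKM in Sg-C3 against 12.35, 7.69 and 7.71 FPKM in Sg-Con. The groups overlapped, with Sg-Con replicate 1 well above the rest (log2 fold change -0.35, SE 0.20, limma adjusted p = 0.192, and -0.14 with that library left out). Trim65, which in human cells ubiquitinates the RNA sensor MDA5, fell, with 0.84, 0.57 and 1.52 FPKM in Sg-C3 against 2.11, 2.05 and 1.56 FPKM in Sg-Con. Sg-C3 replicate 3 was nearly as high as the lowest Sg-Con library. The log2 fold change was -0.58 (SE 0.19, limma adjusted p = 0.0427), and the call was lost in 10 of the 11 alternatives that tested it, title style included. Leaving out Sg-C3 replicate 1 or 2 gave adjusted p of 0.115 and 0.128, and leaving out Sg-Con replicate 1, 2 or 3 gave 0.108, 0.108 and 0.0506. Trim65 shared 4.49% of its 50-base stretches with Trim47.

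**Figure D2:**
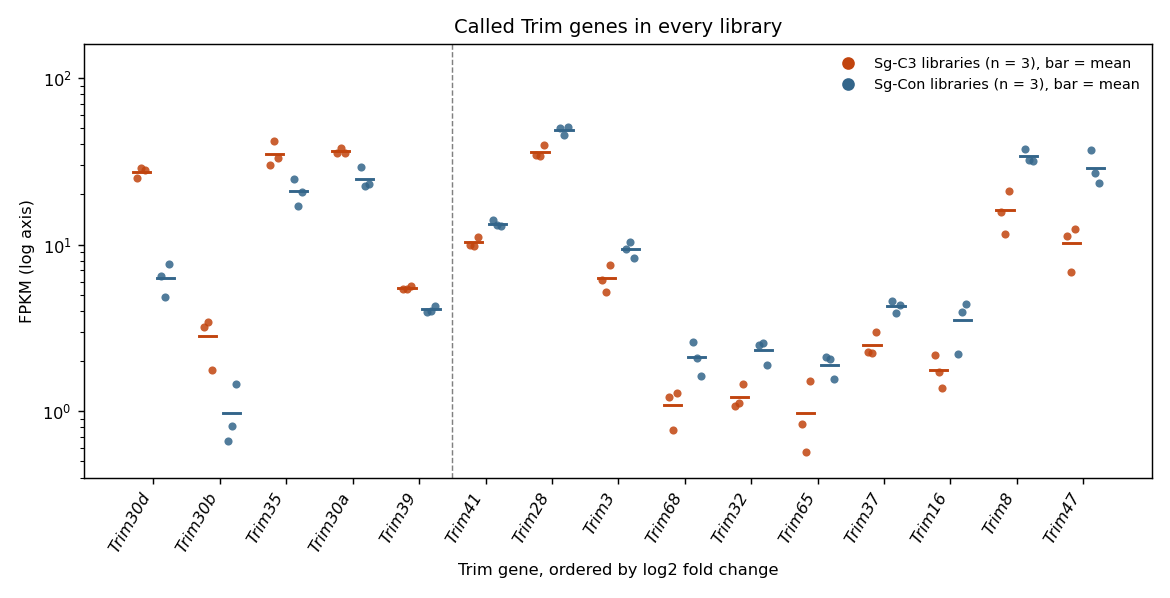
FPKM (log axis) of the 15 called Trim genes in every library, with Sg-C3 points left of Sg-Con points for each gene and bars at the group means (n = 3 each). Left of the dashed line are the 5 genes called higher, with Trim30d farthest apart at a mean of 27.3 FPKM in Sg-C3 and 6.32 FPKM in Sg-Con, and right of it the 10 called lower, ending with Trim47 at 10.2 FPKM in Sg-C3 and 29.0 FPKM in Sg-Con.

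Among the other 9 tested PRY-SPRY members, 2 were called higher and 4 lower (12.7% and 31.7% of all tested genes were). Trim35, first described in mouse macrophages as an inducer of apoptosis, was called higher, with 29.9, 41.6 and 32.9 FPKM in Sg-C3 against 24.9, 17.0 and 20.7 FPKM in Sg-Con. The groups did not overlap, and the log2 fold change was 0.72 (SE 0.17, limma adjusted p = 0.0145, and 0.0506 without Sg-C3 replicate 2). Trim39, which stabilises the apoptosis mediator MOAP1, changed by less but with little spread, at 5.39, 5.38 and 5.65 FPKM in Sg-C3 against 3.95, 4.0 and 4.3 FPKM in Sg-Con. Its log2 fold change was 0.35 (SE 0.09, limma adjusted p = 0.0221). The call was lost if Sg-C3 replicate 1 or 2 (adjusted p = 0.0557 and 0.0636) or Sg-Con replicate 1 or 2 (0.0697 and 0.0671) was left out.

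Trim47, a RING ligase, had the lowest log2 fold change of the 34 tested members. It had 11.3, 6.86 and 12.4 FPKM in Sg-C3 against 36.8, 26.9 and 23.3 FPKM in Sg-Con. Every Sg-C3 library lay well below every Sg-Con library. The means were 10.2 ± 2.94 FPKM in Sg-C3 and 29.0 ± 6.99 FPKM in Sg-Con (SD, n = 3 each), so Sg-Con was 2.85 times as high, and the log2 fold change was -1.44 (SE 0.24, limma adjusted p = 0.00497). It was called in all 12 alternatives, at -1.59 to -1.20.

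The other PRY-SPRY members called lower were less stable. Trim16, which lacks a RING finger and works with galectin-3 on damaged lysosomes, had 2.19, 1.73 and 1.38 FPKM in Sg-C3 against 2.20, 3.92 and 4.43 FPKM in Sg-Con. The highest Sg-C3 and the lowest Sg-Con library were nearly equal. The log2 fold change was -0.68 (limma adjusted p = 0.0390), and the call was lost in 9 of the 11 alternatives that tested it, title style included. Leaving out Sg-C3 replicate 1, 2 or 3 gave adjusted p of 0.0558, 0.102 and 0.0927, and leaving out Sg-Con replicate 2 or 3 gave 0.108 and 0.104. Trim68, a coactivator of the androgen receptor in human cells, had 1.21, 0.77 and 1.29 FPKM in Sg-C3 against 2.6, 2.1 and 1.62 FPKM in Sg-Con. The groups were separate, and the log2 fold change was -0.57 (limma adjusted p = 0.0274). The call was lost if Sg-C3 replicate 1 or 2 (0.0574 and 0.0897) or Sg-Con replicate 1 or 2 (0.0798 and 0.0686) was omitted, and after median-ratio scaling (adjusted p = 0.0560). Trim41, a ligase that binds protein kinase C, had 10.0, 9.76 and 11.1 FPKM in Sg-C3 against 14.1, 13.2 and 12.9 FPKM in Sg-Con. Its log2 fold change of -0.35 (limma adjusted p = 0.0229) left a relative value of -0.18, and it was not called after median-ratio scaling (-0.17, adjusted p = 0.154) or quantile normalization (-0.21, adjusted p = 0.0897). Omitting Sg-C3 replicate 1 or 2 gave adjusted p of 0.0692 and 0.0829, and omitting Sg-Con replicate 1 or 2 gave 0.0758 and 0.0578. Trim27, Trim11 and Trim62 overlapped between the groups and were not called, with log2 fold changes of -0.25, -0.12 and 0.09 and limma adjusted p = 0.134, 0.440 and 0.539. For Trim11 the sign turned after median-ratio scaling (0.05).

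The TIF1 subfamily regulates chromatin and transcription. Trim28, also known as KAP1, the corepressor that KRAB zinc finger proteins recruit to transposable elements, had the highest mean over all 6 libraries after Trim25, though in Sg-C3 it was level with Trim30a. It had 34.6, 34.1 and 39.4 FPKM in Sg-C3 against 50.01, 45.7 and 50.98 FPKM in Sg-Con. The groups were clearly separate, and Trim28 fell by 0.43 on the log2 scale (SE 0.10, limma adjusted p = 0.0114), or -0.27 relative to all genes. After median-ratio scaling the log2 fold change was -0.24 and not called (adjusted p = 0.0615). Trim24, a nuclear receptor cofactor, had 2.77, 2.23 and 2.6 FPKM in Sg-C3 against 3.33, 2.88 and 3.22 FPKM in Sg-Con, and Trim33, a partner of SMAD proteins, 4.41, 4.12 and 3.65 FPKM in Sg-C3 against 3.87, 4.13 and 4.69 FPKM in Sg-Con. Neither was called, with log2 fold changes of -0.23 and -0.05 (limma adjusted p = 0.128 and 0.751), and Trim33 changed sign after median-ratio scaling (0.11). Of 16 tested partners of the subfamily, 7 were called lower and 1 higher (31.7% and 12.7% of all tested genes were), with a median log2 fold change of -0.15, which was 0.03 under median-ratio scaling. Setdb1, the histone methyltransferase that Trim28 recruits, averaged 8.74 ± 0.3 FPKM in Sg-C3 and 13.6 ± 1.34 FPKM in Sg-Con (log2 fold change -0.58, limma adjusted p = 0.00574). The heterochromatin protein gene Cbx3 averaged 18.9 ± 4.0 FPKM in Sg-C3 and 36.3 ± 4.48 FPKM in Sg-Con (log2 fold change -0.92). Smad3 was the partner called higher, at 9.86 ± 0.603 FPKM in Sg-C3 and 4.73 ± 1.27 FPKM in Sg-Con (log2 fold change 0.94).

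Both tested members with NHL repeats, a propeller that binds RNA or protein, were called lower (31.7% of all tested genes were). Trim32, mutated in limb-girdle muscular dystrophy in humans, had 1.08, 1.12 and 1.45 FPKM in Sg-C3 against 2.51, 2.55 and 1.89 FPKM in Sg-Con. The log2 fold change was -0.58 (SE 0.13, limma adjusted p = 0.0129), and Trim32 was called in each alternative that tested it. Trim3, known from neurons, had 6.14, 5.20 and 7.56 FPKM in Sg-C3 against 9.40, 10.4 and 8.30 FPKM in Sg-Con. Neither gene overlapped between the groups, though for Trim3 replicate 3 of Sg-C3 came close to replicate 3 of Sg-Con. The log2 fold change of Trim3 was -0.51 (SE 0.15, limma adjusted p = 0.0266), and the call was lost if Sg-C3 replicate 1 or 2 (0.0740 and 0.0875) or Sg-Con replicate 1 or 2 (0.0654 and 0.0821) was left out and after median-ratio scaling (0.0901) or quantile normalization (0.0817). Trim32 overlaps Astn2 in RefSeq, and the labels do not say whether reads were counted by strand, so reads of the overlap cannot be told apart.

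Of 7 tested members with other or no C-terminal domains, 2 were called lower and none higher (31.7% and 12.7% of all tested genes were). Trim8, which in human cells ubiquitinates the kinase TAK1 of the TNF and IL-1 pathways, had 15.8, 11.6 and 21.0 FPKM in Sg-C3 against 37.55, 32.2 and 31.6 FPKM in Sg-Con. The Sg-C3 libraries varied widely among themselves, yet all lay below Sg-Con. The means were 16.1 ± 4.73 FPKM in Sg-C3 and 33.8 ± 3.27 FPKM in Sg-Con (SD, n = 3 each), and the log2 fold change was -1.06 (SE 0.20, limma adjusted p = 0.00686), called in all 12 alternatives. Trim37, which carries a MATH domain and is mutated in mulibrey nanism in humans, had 2.27, 2.25 and 3.0 FPKM in Sg-C3 against 4.56, 3.87 and 4.33 FPKM in Sg-Con. The groups were separate, and the log2 fold change of -0.59 (SE 0.13, limma adjusted p = 0.0102) was called in each alternative that tested it. Trim37 overlaps Ppm1e in RefSeq.

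The 5 others of this group were not called. Trim13, which is anchored in the endoplasmic reticulum and overlaps Dleu2 and Kcnrg in RefSeq, had 13.8, 12.7 and 6.84 FPKM in Sg-C3 against 8.78, 13.8 and 14.0 FPKM in Sg-Con. Each group had 1 low library and the groups overlapped widely (limma adjusted p = 0.681, for a log2 fold change of -0.15 with SE 0.27). The sign was positive without Sg-C3 replicate 3 (0.14) or after median-ratio scaling (0.03). Trim23, which ends in an ARF GTPase domain, ranged from 1.57 to 1.75 FPKM in Sg-C3 and 1.65 to 1.98 FPKM in Sg-Con (log2 fold change -0.06, adjusted p = 0.648), and Trim44, which lacks a RING finger, from 7.37 to 10.3 FPKM in Sg-C3 and 8.52 to 10.7 FPKM in Sg-Con (-0.14, adjusted p = 0.479). Both had a positive sign after median-ratio scaling (0.06 and 0.03). Trim59 and Trim52 had log2 fold changes of -0.21 and 0.26 (limma adjusted p = 0.251 and 0.233). The only COS-box member tested, the microtubule-binding Trim36, averaged 3.14 ± 0.384 FPKM in Sg-C3 and 2.44 ± 0.605 FPKM in Sg-Con (log2 fold change 0.27, limma adjusted p = 0.172).

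**Figure D3:**
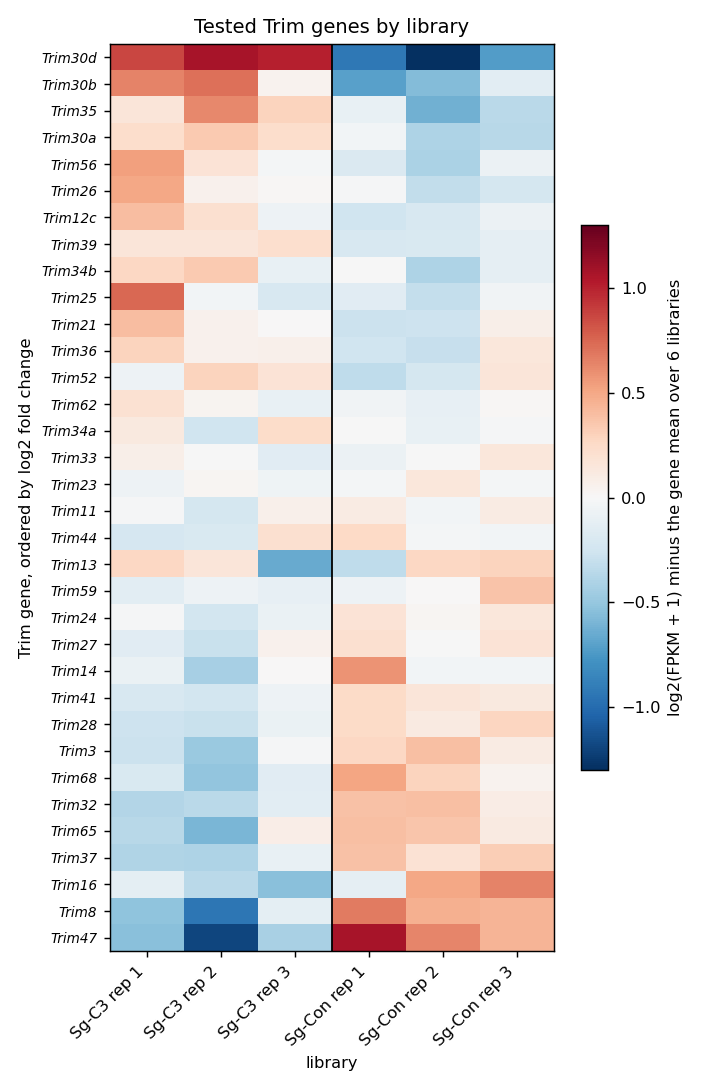
Deviation of log2(FPKM + 1) from each gene's mean over the 6 libraries for the 34 tested Trim genes (rows, ordered by fold change), with the Sg-C3 libraries left of the line and the Sg-Con libraries right of it. Sg-C3 replicate 2 was the highest library for 4 of the 5 genes called higher and the lowest for 8 of the 10 called lower, and the high Trim25 value of Sg-C3 replicate 1 stands out. The same count was not made over all called genes.

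The called members did not move evenly across libraries. Sg-C3 replicate 2 held the highest value of 4 of the 5 members called higher and the lowest value of 8 of the 10 called lower. On the Sg-Con side, replicate 1 was the highest library for 6 of the 10 called lower and replicate 2 the lowest for 3 of the 5 called higher. No such counts were made over all called genes, so whether this is particular to the family is not known. The median-ratio scaling factors, taken over all genes, were lowest in Sg-C3 replicate 2 (0.905) and highest in Sg-Con replicate 1 (1.09). Their part in these counts was not tested. Among the 19 tested members that were not called, Sg-C3 replicate 1 was highest for 7. The summed FPKM of all 50 members was 410, 353 and 357 in Sg-C3 and 386, 336 and 364 in Sg-Con, so the groups overlapped in the family's total.

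The 16 members under the filter were near the floor of these libraries, with at most 56 reads per library as estimated from depth and transcript length. Some called members reached that range in their lowest library, with an estimated 35 reads for Trim68, 44 for Trim65 and 55 for Trim30b. Trim29, a member without RING finger known from epithelia, had 0.54, 0.46 and 0.79 FPKM in Sg-C3 against 0.18, 0.10 and 0.06 FPKM in Sg-Con. The groups were wholly separate, and without a filter it was called higher (log2 fold change 0.52, SE 0.10, limma adjusted p = 0.0107, where 10.0% of all 15487 genes were). The carcinoma markers, by contrast, summed to less in Sg-C3, and the source of the Trim29 reads was not tested. Trim69 ranged from 0.61 to 0.98 FPKM in Sg-C3 and 0.47 to 1.6 FPKM in Sg-Con, Trim43b from 0.63 to 1.40 FPKM in Sg-C3 and 0.49 to 0.91 FPKM in Sg-Con, and Trim7, which binds glycogenin, from 0.41 to 0.68 FPKM in Sg-C3 and 0.26 to 0.50 FPKM in Sg-Con. Trim5 and Trim72, a membrane repair protein of muscle, stayed at or under 0.37 and 0.38 FPKM in Sg-C3 and 0.51 and 0.18 FPKM in Sg-Con. Trim43a, Trim43b and Trim43c share 42.3% to 48.0% of their 50-base stretches with other Trim genes. The muscle ligase genes Trim54 and Trim63 stayed at or under 0.28 FPKM in every library, and 6 of 8 skeletal muscle markers never reached 1 FPKM. The other members under the filter, Trim2, Trim6, Trim15, Trim17, Trim43c, Trim45 and Trim46, did not pass without a filter either.

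Genes that act with the antiviral members were set beside them from lists of their pathways, to be read against the 12.7% of all tested genes called higher and the 31.7% called lower. In the RIG-I, cGAS and TBK1 pathway 8 of 17 tested genes were called higher and 2 lower, with a median log2 fold change of 0.37. Irf7, the transcription factor that amplifies type I interferon, averaged 237 ± 21.1 FPKM in Sg-C3 and 88.3 ± 24.1 FPKM in Sg-Con (log2 fold change 1.45, limma adjusted p = 0.00286), and Dhx58, a RIG-I-like receptor, 41.7 ± 7.81 FPKM in Sg-C3 and 17.6 ± 3.06 FPKM in Sg-Con (1.19). Rnf135, the Trim-like ligase Riplet that also acts on RIG-I, averaged 8.64 ± 0.330 FPKM in Sg-C3 and 4.13 ± 0.903 FPKM in Sg-Con (0.93), and its libraries lay wholly above Sg-Con. Mavs and Irf3 were the members called lower, with log2 fold changes of -0.85 and -0.55 (limma adjusted p = 0.0108 and 0.0324). Among interferon receptors and signalling genes 7 of 14 were called higher and 3 lower, with a median of 0.59, led by Jak2 (1.81), Irf1 (0.90) and Isg15 (2.14), while the receptor chains Ifnar1, Ifngr1 and Ifngr2 were the 3 lower. Of 13 E2 enzymes, which hand ubiquitin to RING ligases, 1 was called higher and 3 lower, with a median of -0.07, or 0.12 under median-ratio scaling. Ube2l6, the E2 that loads Isg15, was the higher one (0.41, adjusted p = 0.0129), and Ube2d1, Ube2w and Ube2e2 the lower ones (-0.47, -0.50 and -0.46).

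Family members that carry other names fell outside the rule. Mefv, which codes for pyrin, was called higher, at 68.4 ± 5.89 FPKM in Sg-C3 and 50.4 ± 8.84 FPKM in Sg-Con (log2 fold change 0.44, limma adjusted p = 0.0362). Pml, the organiser of nuclear bodies, averaged 7.46 ± 0.159 FPKM in Sg-C3 and 7.08 ± 0.690 FPKM in Sg-Con (0.07, adjusted p = 0.593). Mid1 varied widely, at 72.1 ± 18.8 FPKM in Sg-C3 and 40.6 ± 29.5 FPKM in Sg-Con (1.03, adjusted p = 0.111).

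**Figure D4:**
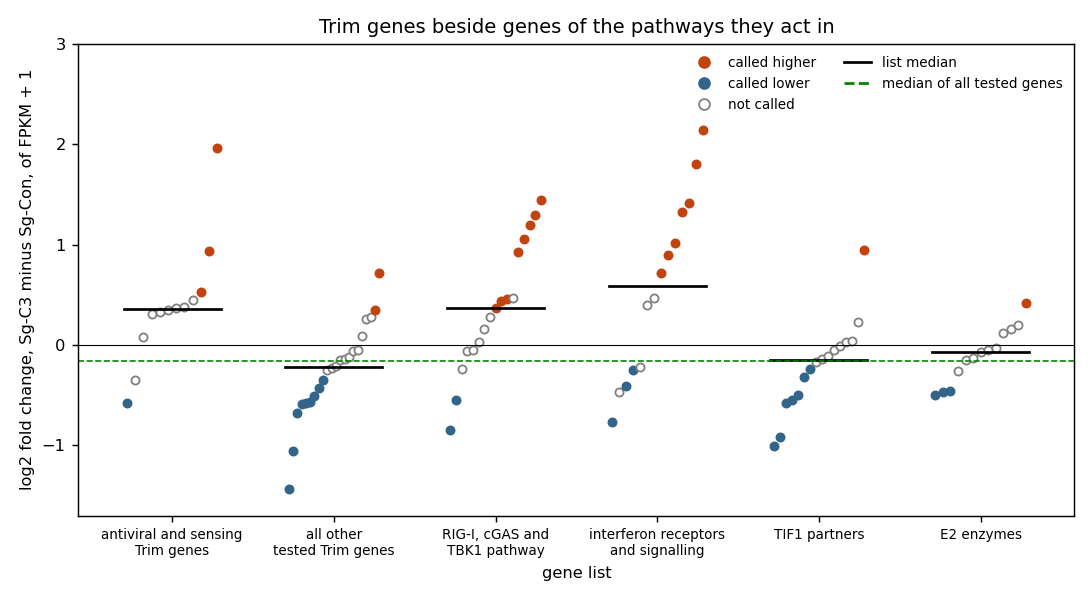
Log2 fold change (vertical axis, Sg-C3 minus Sg-Con, on FPKM + 1) of the tested genes of 6 lists, 1 point per gene, with list medians as bars and a dashed line at the median of all tested genes. The antiviral Trim genes have a median of 0.36, beside 0.37 for the RIG-I, cGAS and TBK1 pathway and 0.59 for interferon receptors and signalling, and the other Trim genes one of -0.22.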

How the data were processed

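RNA of sorted tumour macrophages was measured in 6 libraries, 3 per group, and grouped by the source label of each sample. The table deposited by the authors holds FPKM per gene and library with 2 decimals, per the file headers. Bowtie 0.12.2 and mm8 are named, per the submitters' processing notes; what computed the FPKM is not stated there. For library construction the protocol labels mention TruSeq as well as MGIEasy. Genes reaching 1 FPKM in 3 or more libraries entered a limma fit (3.58.1, R 4.3.3, eBayes with trend) of log2(FPKM + 1), with p adjusted by Benjamini-Hochberg over all 11198 genes, and called at an adjusted p below 0.05. The table holds no counts, so no count test was run. Depth was estimated from short RNA genes, by keeping the setting at which most of their values fell on multiples of 1 read. At that best setting 88.6% to 94.1% were whole within 0.1 read. The 20% expected by chance holds for a fixed setting, not for the best of many. Fold changes understate low genes. Promoter windows came from RefSeq on GRCm38.p6 and transcripts from GENCODE vM21. These differ from mm8, so the only coordinates given are those of the promoter windows, on GRCm38.p6. Members, roles and lists were chosen with earlier results of these data known. The naming rule takes called members, the most abundant, those nearest to and farthest from the threshold, and the highest below the filter; the remaining members were added to account for all 50. Replicates are numbered in accession order. Nothing says that libraries of a group came from separate mice, so a p-value speaks only for the spread among the libraries at hand, possibly a technical one. Alternatives changed the pseudocount, filter or scaling, took title style as a covariate, or left out each library. The fit was tested on simulated data. Python 3.11.15, pandas 2.3.3, numpy 2.4.6 and matplotlib 3.10.9 were used.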

Additional observations from a re-analysis of the deposited data

How the results depend on the processing

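Trim30a, Trim30d, Trim47 and Trim8 kept their calls in all 12 alternatives, and Trim32 and Trim37 in the 11 that tested them. The other 9 called members lost theirs in at least 1. Requiring a mean of 5 FPKM gave 3 higher, 5 lower and a median of -0.14. Median-ratio scaling gave 9, 4 and 0.0527, with 2211 and 1965 of all genes, and quantile normalization 9, 6 and 0.0468. With no filter the median was -0.0132. Leaving out each library in turn gave 2 to 8 members higher and 5 to 9 lower, and 810 to 1423 and 1970 to 3639 of all genes. Signs changed only among members that were not called. After median-ratio scaling and quantile normalization, in that order, log2 fold changes were 0.108 and 0.132 for Trim33, 0.0483 and 0.0542 for Trim11, 0.0571 and 0.0393 for Trim23, and 0.0348 and 0.0223 for Trim44, and Trim13 had 0.0290 after the first. Over the libraries left out, Trim33 ranged from -0.0974 to 0.0149 (positive without Sg-C3 replicate 3, at 0.0121, or Sg-Con replicate 3), Trim34a from -0.0251 to 0.223 and Trim13 from -0.351 to 0.140. The cause was not tested. No paired analysis was possible because the labels give no replicate number that the groups share. With title style as a covariate 5 were higher and 8 lower. Members under the filter rest on at most 56 estimated reads per library. The called members Trim68, Trim65 and Trim30b went down to 35, 44 and 55 estimated reads in their lowest library.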
